A study of Mus musculus with 12 samples.

Results

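The transcriptome of Phf6 knockout (KO) mouse embryonic stem cells treated with retinoic acid was compared with that of untreated KO cells. The comparison used 4 of the 12 RNA-seq libraries of the series, selected by the genotype and treatment in their titles, with 2 libraries of retinoic acid-treated KO cells and 2 of KO control cells. Phf6 encodes a chromatin-binding nuclear protein with PHD-type zinc fingers, and the title of the series names trophectodermal genes as its targets. All cells were of the line ZHBTc4 (strain 129/Ola, passage 1). Its own copies of Pou5f1, which encodes the pluripotency factor Oct4, are inactivated, and a doxycycline-repressed transgene supplies Oct4. The libraries compared here had no doxycycline; 2 libraries of KO cells given 0.5 ug/ml of doxycycline for 2 days, in medium with LIF, are cited once for trophectoderm genes.

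Treated KO cells had all-trans retinoic acid for 4 days, at a concentration that the labels print as 10 mM, in medium without leukemia inhibitory factor (LIF). The medium of both groups had 15% fetal bovine serum. That of KO control cells also had 1000 units/ml of LIF, the cytokine that holds mouse embryonic stem cells in self-renewal. RNA of the treated libraries went through a Qiagen RNeasy kit after Trizol, and RNA of the control libraries was extracted with Trizol. Retinoic acid, the absence of LIF and the extraction kit therefore differ together between the groups, and their parts in any difference below cannot be told apart. The labels do not say whether the 2 libraries of a group were separate cultures or whether the KO cells came from 1 clone, so the p-values rest on a spread between libraries that may be technical only. Retinoic acid-treated WT cells and WT control cells (2 libraries each), which had the same media and kits, share no library with the KO comparison and are set beside it. In bulk RNA, fewer cells of a type and less RNA per cell cannot be told apart.

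Retinoic acid is made from vitamin A and acts through nuclear receptors (RARs) that bind DNA as partners of the retinoid X receptors (RXRs) at paired half-sites, often direct repeats separated by 5 bases. Without ligand the receptors hold corepressors, and with ligand they recruit coactivators. Among the best known direct targets are Rarb, the receptor gene itself, and Cyp26a1, whose enzyme breaks retinoic acid down, and the Hox genes at the 3′ ends of their clusters. In embryonic stem cells retinoic acid ends self-renewal and, depending on the culture, drives them toward neural or extraembryonic endoderm fates.

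The promoters of Rarb and Cyp26a1 are shown because both hold such a repeat and because both genes were among the strongly responding retinoid genes. RefSeq sequence (GRCm38.p6) was searched on both strands of the window from 250 bases before to 50 bases after each start for 2 half-sites in the same direction with 1, 2 or 5 bases between them. A half-site was the consensus AGGTCA or a variant (the word AGTTCA, the word GGGTCA and the word GGTTCA). The repeat with 5 bases (DR5) occurred in 31 of 27025 genes (0.115%), the repeat with 1 base in 71 (0.263%) and that with 2 bases in 84 (0.311%). The 100 bases before each start are given 5′ to 3′ on the strand of the gene, with the repeat in capitals.
Rarb (chr14:16575477-16575576, minus strand): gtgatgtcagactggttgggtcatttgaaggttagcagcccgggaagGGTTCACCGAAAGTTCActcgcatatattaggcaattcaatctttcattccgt
Cyp26a1 (chr19:37697708-37697807, plus strand): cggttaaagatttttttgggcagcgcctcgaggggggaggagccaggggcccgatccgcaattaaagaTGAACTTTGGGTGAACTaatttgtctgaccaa
The Rarb repeat lies at chr14:16575513-16575529, from base -53 to base -37 relative to the start, and reads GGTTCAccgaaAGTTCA on the strand of the gene. The Cyp26a1 repeat lies at chr19:37697776-37697792, from base -32 to base -16, and reads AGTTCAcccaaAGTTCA on the opposite strand.

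A DR5 was found in 1 of 9 retinoid receptor and cofactor genes with a window (Rarb) and in 1 of 18 genes of retinoid handling (Cyp26a1). None of 12 other retinoic acid targets and none of 22 Hox genes with a window had one, which says only that these letters are not in the window searched. Of the 31 genes with a DR5 in the window, 10 were tested for expression: 4 were higher in treated KO cells, 2 were lower and 4 did not pass the test. Over all genes tested, 40.9% were higher and 34.6% lower. The match is a description of the sequence and not a bound site.

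Libraries held between 15799544 and 21441994 counts in the series. The treated KO libraries held 18391478 and 16543039 counts, and the KO control libraries 16971278 and 17729395. Levels are CPM, read counts relative to TMM-scaled library sizes, and changes are log2 values ± SE from an edgeR quasi-likelihood fit over all 12 libraries. The SE was derived from the F statistic of each gene (log2 change over the root of F), and where 1 group has few reads it may understate the counting error. Genes with any count numbered 24472 and 24044 in treated KO cells, against 22450 and 22526 in KO control cells. Mitochondrial transcripts took 1.28% and 1.19% of counts in treated KO cells, against 1.31% and 1.33% in KO control cells. Short noncoding RNAs took 0.0395% and 0.0413% in treated KO cells, against 0.0798% and 0.066% in KO control cells, and replication histone RNAs 0.0067% and 0.0072% in treated KO cells, against 0.005% and 0.0045% in KO control cells. Without mitochondrial, short noncoding and histone genes, among them variant histones outside the replication class, 13472 genes passed the test, against 13502 with them.

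As a check of the genotype, Phf6 (ENSMUSG00000025626.16, chromosome X, 52912266 to 52956943, GRCm38) stood at 5.90 and 5.96 CPM in treated KO cells, against 4.49 and 6.50 CPM in KO control cells, and at 40.3 and 40.7 CPM in treated WT cells and 42.8 and 40.2 CPM in WT control cells. Its change with retinoic acid in KO cells was 0.10 ± 0.16 and did not pass the test (edgeR adjusted p = 0.56). All 4 KO libraries lay below all 4 WT libraries. Which exons the residual reads of the KO libraries cover is not visible in gene-level values. Pou5f1 (ENSMUSG00000024406.16, chromosome 17, 35506018 to 35510772) had 976 and 989 CPM in treated KO cells, against 1196 and 1193 CPM in KO control cells. Gene-level values do not show whether these reads come from the transgene or from the inactivated copies. The change was -0.28 ± 0.09 (edgeR adjusted p = 0.011), small beside the changes of most other pluripotency genes given below. A change of this size depends on the scaling described above. Without the first treated KO library it did not pass (edgeR adjusted p = 0.06).

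In KO cells 13502 of 17884 genes tested passed an adjusted p of 0.05 with retinoic acid (75.5%). Of these, 7319 were higher (40.9%) and 6183 lower (34.6%). By at least 2-fold, 4190 were higher (23.4%) and 2358 lower (13.2%), and the median change of all genes was 0.10. Because 3 in 4 genes passed the test, the size of a change and the direction shared by a group of genes carry more information than the passing of the test. The shares of 40.9% higher and 34.6% lower are the background for the counts of every list below. In WT cells 7332 genes were higher (41.0%) and 5883 lower (32.9%). Together these were 73.9% of the genes tested. The median change of all genes in WT cells was 0.12.

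The genes that receive the retinoic acid signal shared no direction. Of 12 receptor and cofactor genes tested, 5 were higher and 5 lower, beside 40.9% and 34.6% of all genes tested. The median change was -0.03. Rarb was the exception in size, at 38.8 and 39.3 CPM in treated KO cells, against 0.256 and 0.729 CPM in KO control cells. The treated libraries lay far above both controls, a change of 6.27 ± 0.20 (edgeR adjusted p = 6.6e-21). Nrip1, a ligand-dependent corepressor, had 60.9 and 55.3 CPM in treated KO cells, against 8.20 and 11.5 CPM in KO control cells, a change of 2.56 ± 0.13 (edgeR adjusted p = 5.2e-11). Rara, the more broadly expressed receptor gene, rose by 0.76, and Rxra, a partner receptor gene, by 0.32. Rarg, a receptor gene with a role in early embryos, fell to 45.1 and 41.2 CPM in treated KO cells, against 75.03 and 75.3 CPM in KO control cells (-0.80 ± 0.06). The corepressor gene Ncor1 (-0.73) and the coactivator gene Ncoa3 (-0.57) were lower.

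Genes that handle retinoids changed more. Of 21 tested members of the 23 in this list, 15 were higher, 13 of them by at least 2-fold, and 4 were lower, with a median of 1.52. The enzymes that degrade retinoic acid had some of the largest changes. Cyp26a1 had 183 and 204 CPM in treated KO cells, against 0.128 and 0.425 CPM in KO control cells, a change of 9.39 ± 0.16 (edgeR adjusted p = 1.7e-26). Cyp26b1 had 68.5 and 83.8 CPM in treated KO cells, against 0.384 and 0.608 CPM in KO control cells (7.23 ± 0.17), and the third enzyme gene, Cyp26c1, reached 4.07 and 3.82 CPM in treated KO cells, against 0.0641 and 0.0608 CPM in KO control cells, with 2 control reads in all and a count ratio of 63.3-fold (95% exact counting interval 17.3 to 528). Per transcript length, Cyp26a1 stood at 206 and 228 TPM in treated KO cells and was the most abundant of the 3, above Cyp26b1 at 32.7 and 43.5 TPM and Cyp26c1 at 4.67 and 4.34 TPM.

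Several uptake and binding genes rose as well. Stra6, the membrane receptor for the plasma retinol carrier, had 38.00 and 41.7 CPM in treated KO cells, against 0.769 and 0.547 CPM in KO control cells (5.91 ± 0.19). Crabp2, which delivers retinoic acid to the receptors, had 162 and 146 CPM in treated KO cells, against 5.45 and 7.17 CPM in KO control cells (4.60 ± 0.09). Crabp1, its paralog in the cytoplasm, was already expressed and moved little, with 63.3 and 62.5 CPM in treated KO cells, against 53.4 and 54.3 CPM in KO control cells (0.22 ± 0.07, edgeR adjusted p = 0.0037). Without the first KO control library Crabp1 did not pass (edgeR adjusted p = 0.062). Dhrs3, which returns retinal to retinol, had 31.4 and 33.1 CPM in treated KO cells, against 1.60 and 1.64 CPM in KO control cells (4.31 ± 0.15). Of the genes that make retinoic acid, Aldh1a2 had 10.2 and 8.52 CPM in treated KO cells, against 1.86 and 1.46 CPM in KO control cells (2.49 ± 0.22), and Aldh1a1 had 4.77 and 4.60 CPM in treated KO cells and no read in KO control cells. Against a floor of 3 counts per control library, Aldh1a1 was at least 25.03-fold higher. Rdh10, which oxidizes retinol, rose by 0.87, while Aldh1a3 (-0.17) did not pass the test. Adh5 (-0.96), Rdh11 (-0.63) and Fabp5 (-0.79), a fatty acid carrier that also binds retinoic acid, were lower.

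Of 21 other known targets tested, 17 were higher and 3 lower (median 2.58). Stra8, which is needed for meiotic entry, had 179.9 and 186 CPM in treated KO cells, against 7.43 and 7.29 CPM in KO control cells (4.63 ± 0.08). The zinc finger gene Zfp503 had 29.9 and 29.4 CPM in treated KO cells, against 0.192 and 0 CPM in KO control cells, with 3 control reads in all and a count ratio of 317-fold (95% exact counting interval 108 to 1538). The zinc finger genes Zfp703 (5.57) and Tshz1 (5.79) and the forkhead gene Foxa1 (6.71) changed in the same direction, and so did the orphan receptor genes Nr2f1 (5.48) and Nr2f2 (5.02). Cdx1, a regulator of Hox genes, had 10.3 and 12.1 CPM in treated KO cells, against 1.47 and 2.25 CPM in KO control cells (2.58 ± 0.21). Tgm2, a transglutaminase gene that retinoic acid induces in other cells, was lower, with 33.5 and 36.5 CPM in treated KO cells, against 109 and 111 CPM in KO control cells. Pdgfa, the ligand of the receptor gene Pdgfra, was lower too (-1.41).

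**Figure D1:**
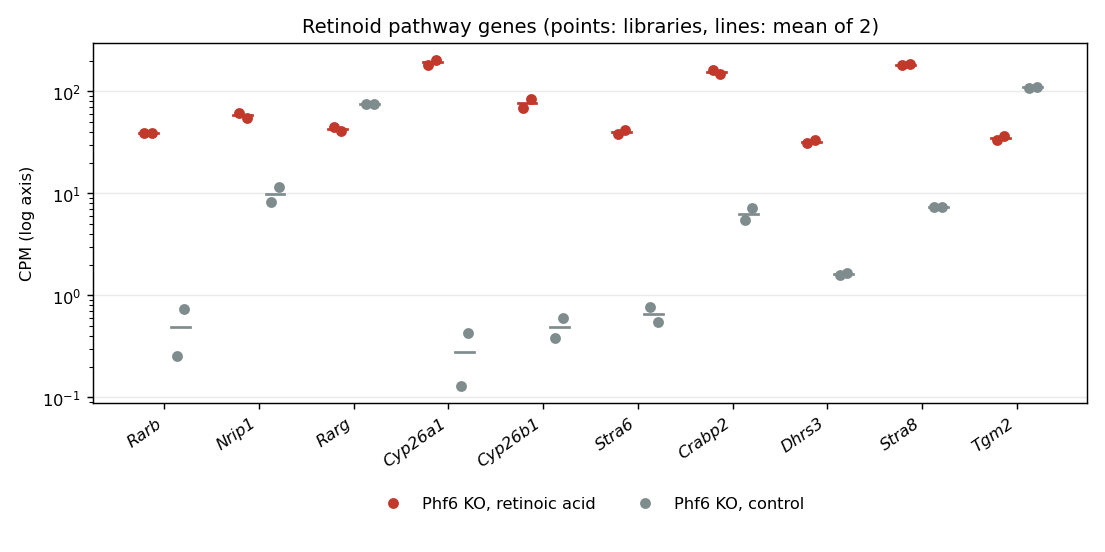
Level of 10 retinoid pathway genes in each library, in CPM on a log axis, with treated KO cells left of KO control cells for each gene; each point is 1 library. The 2 treated libraries lie above both control libraries for Rarb, Nrip1, Cyp26a1, Cyp26b1, Stra6, Crabp2, Dhrs3 and Stra8, and below them for Rarg and Tgm2.

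Hox genes, which give cells their position along the body axis, rose in all 4 clusters. Of 39 Hox genes 38 were tested, 35 were higher and none was lower, at an overall share of 40.9% of genes called higher. The median change was 5.72. In KO control cells 13 Hox genes had no read, and with the 12 of these that had reads in treated cells set at their lower bound the median was 4.80. One gene, Hoxd12, had no read in either group and was not tested. Hoxd10, Hoxd11 and Hoxc11 did not pass the test, and Hoxd11 passed without the second KO control library (edgeR adjusted p = 0.045).

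Per transcript length, the Hoxa and Hoxb clusters were the most expressed. The Hoxa genes (chromosome 6) summed to 256.8 and 247.7 TPM in treated KO cells, against 2.89 and 2.86 TPM in KO control cells. The Hoxb genes (chromosome 11) summed to 252.9 and 244.4 TPM in treated KO cells, against 4.99 and 4.11 TPM in KO control cells. The Hoxc genes (chromosome 15) reached 56.7 and 51.4 TPM in treated KO cells, against 1.21 and 1.68 TPM in KO control cells, and the Hoxd genes (chromosome 2) 11.4 and 14.4 TPM in treated KO cells, against 0.6 and 0.77 TPM in KO control cells. A mean of 10 TPM was reached by 5 of 11 Hoxa, 9 of 10 Hoxb, 2 of 9 Hoxc and no Hoxd gene of 9.

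Hoxa5, active in the neck and anterior trunk, had 72.1 and 69.2 CPM in treated KO cells and no read in KO control cells, at least 377-fold higher. Hoxb4 with 52.7 and 51.6 CPM, Hoxb1 with 31.4 and 28.6 CPM, Hoxb2 with 24.1 and 21.6 CPM and Hoxb3 with 19.3 and 19.4 CPM in treated KO cells also had no read in KO control cells. Their lower bounds were 278-fold, 160.2-fold, 122-fold and 103-fold.

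Genes of the middle and posterior ends of the clusters responded too. Hoxb9 had 74.1 and 72.4 CPM in treated KO cells, against 7.11 and 6.20 CPM in KO control cells (3.46 ± 0.10), and was one of the few Hox genes with more than 1 CPM in KO control cells. Hoxa9 had 12.3 and 11.6 CPM in treated KO cells and no read in KO control cells, at least 63.9-fold higher, and Hoxc8 6.69 and 6.33 CPM in treated KO cells and no read in KO control cells, at least 34.8-fold higher. Hoxb13 had 4.12 and 4.50 CPM in treated KO cells, against 0.320 and 0.243 CPM in KO control cells, and Hoxa13, the last gene of its cluster, 1.73 and 1.73 CPM in treated KO cells, against 0.128 and 0 CPM in KO control cells. With 2 control reads in all, the count ratio of Hoxa13 was 27.7-fold (95% exact counting interval 7.39 to 233). Hoxb5os, an antisense RNA that overlaps Hoxb5 and Hoxb6, had 16.9 and 17.3 CPM in treated KO cells and no read in KO control cells. The strand setting of the counting is not given in the sources used here, so its reads and those of Hoxb5 (9.69 and 10.8 CPM in treated KO cells) and Hoxb6 (11.04 and 11.9 CPM) cannot be told apart.

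**Figure D2:**
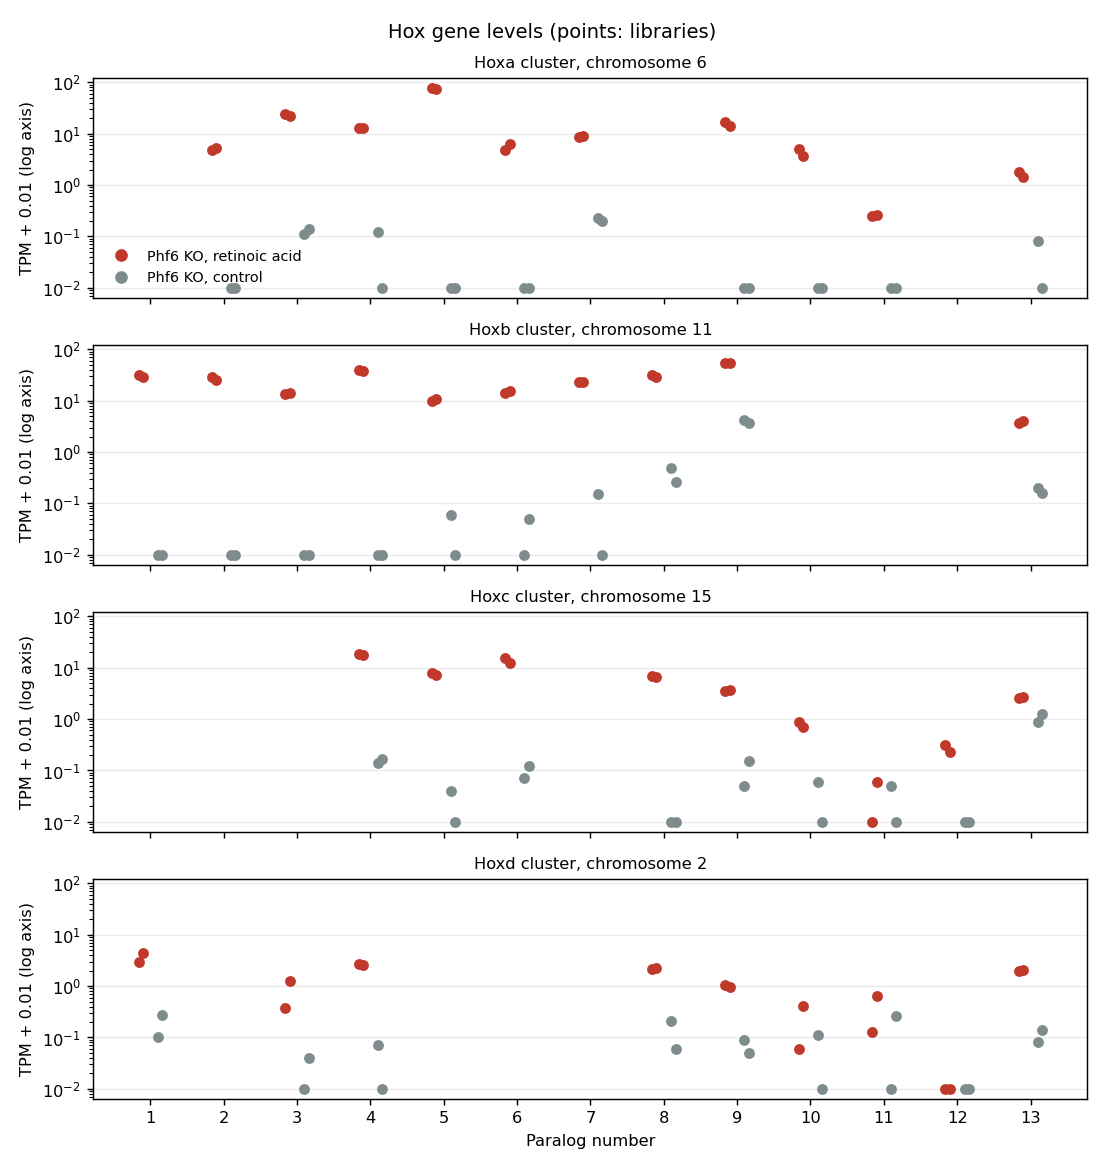
Deposited TPM of 38 Hox genes by cluster and paralog number, on a log axis after adding 0.01, with treated KO cells left of KO control cells; each point is 1 library. Treated libraries lie above control libraries for most genes, and the Hoxa and Hoxb genes reach the highest levels.

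Hox proteins bind DNA together with TALE homeobox proteins, and 8 of 11 TALE genes were higher, all of them by at least 2-fold, and 2 lower. Meis2 had 121 and 123 CPM in treated KO cells, against 0.577 and 0.243 CPM in KO control cells (8.21 ± 0.15), and Meis1 had 96.1 and 95.96 CPM in treated KO cells, against 0.320 and 0.608 CPM in KO control cells (7.66 ± 0.16). Tgif1, a TALE repressor that competes at retinoid response elements, was lower, with 68.4 and 69.97 CPM in treated KO cells, against 235 and 248.5 CPM in KO control cells (-1.81 ± 0.05). Among 16 genes of hindbrain segments 10 were higher and 5 lower. Egr2, a regulator of hindbrain segments, fell to 0.281 and 0.366 CPM in treated KO cells, against 3.72 and 2.80 CPM in KO control cells.

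Pluripotency genes fell. All 21 genes of the naive list were lower, at a background of 34.6% of genes called lower, and 19 fell at least 2-fold (median change -3.10). Nanog, a core factor of self-renewal, had 73.1 and 77.03 CPM in treated KO cells, against 739 and 769.5 CPM in KO control cells, a change of -3.33 ± 0.05 (edgeR adjusted p = 1.7e-27). Esrrb, an orphan receptor that sustains the naive state, had 30.2 and 35.7 CPM in treated KO cells, against 1049 and 1065 CPM in KO control cells (-5.01 ± 0.07), and Zfp42, the marker known as Rex1, had 95.4 and 90.1 CPM in treated KO cells, against 1489.7 and 1478 CPM in KO control cells (-4.00 ± 0.05). Klf4 (-3.35), Klf2 (-4.15), Nr0b1 (-4.87) and Tfcp2l1 (-2.57) fell as well. Prdm14, which represses differentiation genes, had 0.515 and 0.784 CPM in treated KO cells, against 18.8 and 20.5 CPM in KO control cells (-4.92 ± 0.18). The smallest falls of the list were those of Tbx3 (-0.83) and Gbx2 (-0.84). The summed level of the list was 1098 and 1112 CPM in treated KO cells, against 7364 and 7424 CPM in KO control cells.

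Of 22 genes of the wider pluripotency list, 19 were lower and 1 was higher. Tdgf1, the Nodal coreceptor also called Cripto, had 4.49 and 5.44 CPM in treated KO cells, against 932 and 934 CPM in KO control cells, the largest fall of the list (-7.56 ± 0.21, edgeR adjusted p = 3.2e-08). Sox2, the partner of Oct4 on DNA, had 93.2 and 99.8 CPM in treated KO cells, against 495 and 505 CPM in KO control cells (-2.37 ± 0.05). Fgf4, a joint target of Oct4 and Sox2, had 9.83 and 9.57 CPM in treated KO cells, against 231 and 246 CPM in KO control cells (-4.62 ± 0.08), and Utf1, another one, had 15.3 and 17.05 CPM in treated KO cells, against 288 and 278 CPM in KO control cells (-4.13 ± 0.08). Lin28a, which blocks the maturation of let-7 microRNAs, had 110.2 and 116 CPM in treated KO cells, against 111 and 117 CPM in KO control cells and did not pass the test (-0.02). Sall4 (-1.36) and Dppa4 (-0.72) fell less, and Tex19.1 was the gene that rose (0.23).

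Genes of the LIF pathway went both ways, with 8 of 19 higher and 8 lower. These counts are close to the shares of all genes tested (40.9% higher and 34.6% lower). The LIF receptor genes moved little: Lifr had 142 and 128 CPM in treated KO cells, against 132 and 135 CPM in KO control cells (0.02), and Il6st, its signalling partner, rose by 0.31. Several targets of Stat3 were lower. Socs3, the feedback inhibitor, had 27.3 and 29.1 CPM in treated KO cells, against 165 and 175 CPM in KO control cells (-2.59 ± 0.06), Socs2 had 8.10 and 9.94 CPM in treated KO cells, against 82.8 and 85.7 CPM in KO control cells (-3.23 ± 0.09), and Pim3 (-1.71), Bcl3 (-1.90) and Junb (-1.23) fell. Jak2 (2.13), Osmr (2.89) and Socs1 (1.48) rose.

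In the lists of the Nodal and FGF pathways, both active in embryonic stem cells, more genes were lower than higher. In the Nodal list 5 of 18 were higher and 9 lower. Lefty2, a feedback inhibitor that Nodal induces, had 3.04 and 3.66 CPM in treated KO cells, against 117 and 107 CPM in KO control cells (-5.07 ± 0.11), Lefty1 had 2.53 and 3.56 CPM in treated KO cells, against 50.4 and 45.2 CPM in KO control cells (-3.98 ± 0.14), and Nodal itself had 14.7 and 14.3 CPM in treated KO cells, against 72.6 and 74.7 CPM in KO control cells (-2.34 ± 0.08). Lefty1 and Lefty2 are near-identical copies, so the split of reads between them is uncertain. In the FGF and ERK list 6 of 20 were higher and 11 lower. Spry4, an inhibitor induced by ERK signalling, had 4.68 and 4.18 CPM in treated KO cells, against 386 and 404 CPM in KO control cells (-6.47 ± 0.08), and Spry2 (-2.73), Etv4 (-3.46) and Etv5 (-2.53) fell with it. Fgf17 had 0.0936 and 0.0523 CPM in treated KO cells, against 5.51 and 5.29 CPM in KO control cells, with 3 reads in treated KO cells and a count ratio 72.8-fold lower (95% exact counting interval 24.5 to 357). Receptor genes rose: Fgfr2 had 86.7 and 86.5 CPM in treated KO cells, against 7.69 and 9.97 CPM in KO control cells (3.29 ± 0.09), Fgfr3 had 34.9 and 36.3 CPM in treated KO cells, against 6.09 and 5.84 CPM in KO control cells (2.58 ± 0.13), and Fgfr4 rose by 1.92.

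Genes of the formative and primed epiblast, the stage that follows naive pluripotency, did not share a direction: 7 of 19 were higher and 10 lower. Otx2, a head and epiblast regulator, had 0.140 and 0.157 CPM in treated KO cells, against 29.6 and 29.7 CPM in KO control cells, a change of -7.58 ± 0.22 (edgeR adjusted p = 5.2e-22). The epiblast marker Fgf5 was too low to be tested. Sox3 (3.75) and Cdh2 (3.48), the N-cadherin gene, rose. The de novo methyltransferase genes Dnmt3a (-0.37) and Dnmt3b (-0.50) fell slightly.

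**Figure D3:**
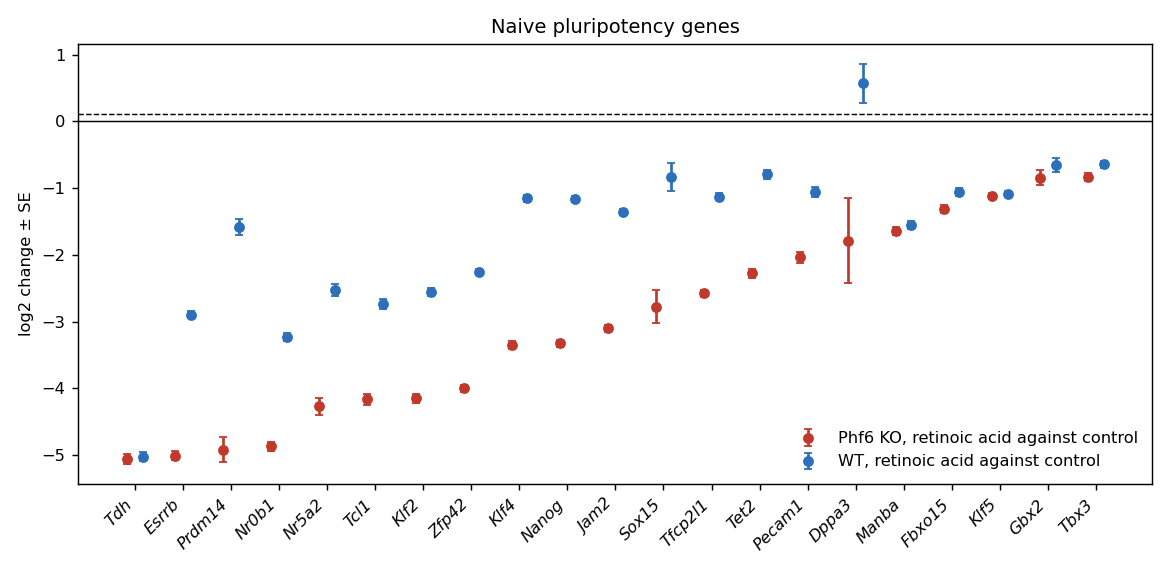
Log2 change with retinoic acid of the 21 naive pluripotency genes in KO cells (left of each pair) and WT cells (right), with SE from the edgeR fit as bars; the dashed line marks the median change of all genes in KO cells. All 21 KO values lie below 0, and most lie below the WT value of the same gene.

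Genes of primitive endoderm, the extraembryonic layer that lines the yolk cavity, rose together. Of 14 transcription factor genes 12 were higher, all of them by at least 2-fold, and none was lower, with a median change of 4.22. Gata6, the first factor of the lineage, had 95.2 and 101 CPM in treated KO cells, against 0.641 and 0.547 CPM in KO control cells, a change of 7.35 ± 0.15 (edgeR adjusted p = 2.6e-25). Gata4 had 75.3 and 77.7 CPM in treated KO cells, against 0.961 and 1.03 CPM in KO control cells (6.25 ± 0.13). Sox17 had 44.1 and 51.2 CPM in treated KO cells, against 0.192 and 0.243 CPM in KO control cells (7.72 ± 0.24), and Sox7, a factor of parietal endoderm, had 22.6 and 20.1 CPM in treated KO cells, against 1.60 and 1.03 CPM in KO control cells (4.02 ± 0.20). The forkhead gene Foxq1 rose by 6.76. Foxa2, which definitive endoderm also expresses, had 11.8 and 13.4 CPM in treated KO cells, against 0.0641 and 0.122 CPM in KO control cells, with 3 control reads in all and a count ratio of 134-fold (95% exact counting interval 45.7 to 654). Foxa3 (-0.58) did not pass the test.

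Surface and signalling genes of the lineage followed, with 14 of 15 higher and 1 lower. Cubn, the endocytic receptor cubilin, had 1455 and 1434 CPM in treated KO cells, against 0.384 and 0.912 CPM in KO control cells, one of the largest changes of any gene (11.09 ± 0.11, edgeR adjusted p = 1.1e-32). Its partner Amn had 18.8 and 19.3 CPM in treated KO cells, against 1.86 and 1.95 CPM in KO control cells (3.32 ± 0.18), the coreceptor Lrp2 had 379.8 and 365 CPM in treated KO cells, against 33.6 and 33.5 CPM in KO control cells (3.47 ± 0.06), and the endocytic adaptor Dab2 had 458 and 483 CPM in treated KO cells, against 1.47 and 1.70 CPM in KO control cells (8.20 ± 0.10). Lrpap1, the chaperone of this receptor family, had 1088 and 1127 CPM in treated KO cells, against 134 and 143 CPM in KO control cells. Pdgfra, an early marker, had 95.2 and 97.3 CPM in treated KO cells, against 3.52 and 3.28 CPM in KO control cells (4.82 ± 0.10). Fst, an activin antagonist, was the member that fell (-2.34).

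Cargo genes of mature visceral endoderm were a mixed group. Of 20 listed 12 were tested, 9 were higher and 1 lower. Ttr, the thyroxine carrier transthyretin, had 9.17 and 10.9 CPM in treated KO cells and no read in KO control cells, at least 53.7-fold higher. Mttp, which loads lipoproteins, had 66.4 and 70.8 CPM in treated KO cells, against 16.2 and 15.9 CPM in KO control cells (2.09 ± 0.08), and Apob, the protein of those particles, had 18.02 and 16.9 CPM in treated KO cells, against 2.63 and 2.07 CPM in KO control cells (2.90 ± 0.17). Afp, the alpha-fetoprotein gene, stayed low, with 1.03 and 0.889 CPM in treated KO cells and no read in KO control cells, and Alb had under 1 CPM in every KO library. Apoe fell to 186 and 200.3 CPM in treated KO cells, against 602 and 585 CPM in KO control cells, a change of -1.62 ± 0.06 (edgeR adjusted p = 4.6e-18).

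Basement membrane genes, which parietal endoderm expresses strongly, rose together. Of 24 genes 23 were higher, 20 of them by at least 2-fold, and none was lower, and the list summed to 23497 and 24741 CPM in treated KO cells, against 3234 and 3240.3 CPM in KO control cells. The collagen IV chain genes Col4a1, with 3020.4 and 3303 CPM in treated KO cells, against 40.8 and 40.6 CPM in KO control cells (6.28 ± 0.07), and Col4a2, with 1810.3 and 1996 CPM in treated KO cells, against 24.3 and 24.01 CPM in KO control cells (6.30 ± 0.08), had the largest changes. The laminin chain genes Lama1 (4.56), Lamb1 (4.91) and Lamc1 (2.86) rose with them. Lama1 alone had 3496 and 3597 CPM in treated KO cells. Serpinh1, the collagen chaperone, had 1697 and 1801 CPM in treated KO cells, against 53.1 and 54.1 CPM in KO control cells (5.03 ± 0.08), and Sparc, a matrix glycoprotein gene, had 1746 and 1938 CPM in treated KO cells, against 147 and 149 CPM in KO control cells (3.64 ± 0.06). Nid1 (0.47) and Nid2 (0.46), which link the collagen and laminin networks, rose little.

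**Figure D4:**
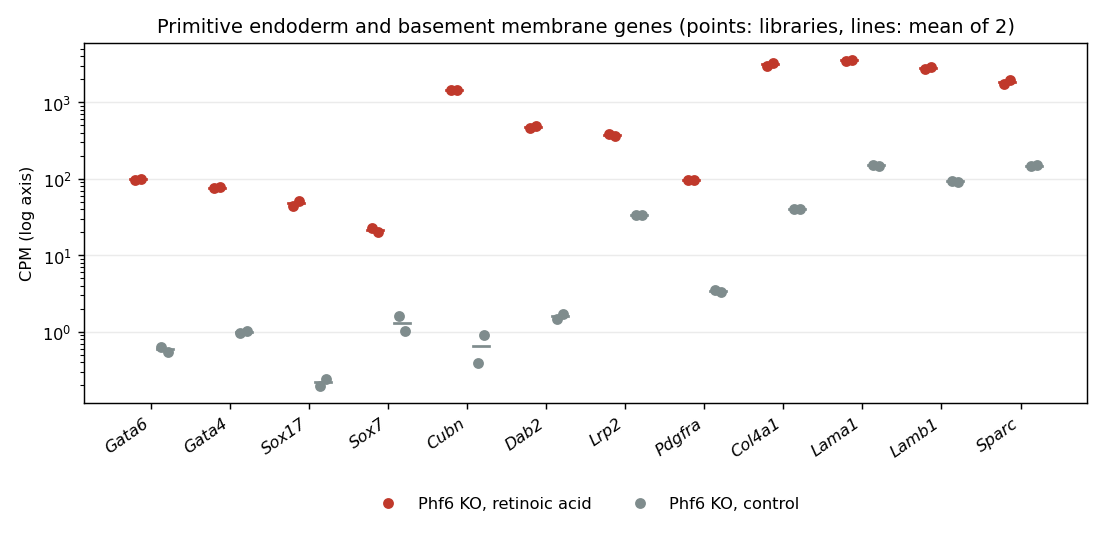
Level in each library, in CPM on a log axis, of 12 primitive endoderm and basement membrane genes, with treated KO cells left of KO control cells for each gene; each point is 1 library. Both treated libraries lie above both control libraries for all 12 genes.

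Trophectoderm genes, which the title of the series concerns, were more often higher than lower. Of 29 genes 18 were higher, 17 of them by at least 2-fold. Another 6 were lower, 4 of them by at least 2-fold, and the median was 1.98. Over all genes tested, 40.9% were higher and 34.6% lower. Of the 30 listed genes 10 are also in another list. Cdx2, the factor that sets up the lineage, had 4.45 and 4.92 CPM in treated KO cells, against 0.641 and 0.304 CPM in KO control cells (3.30 ± 0.29). In KO cells given doxycycline, which share the KO controls, Cdx2 had 15.2 and 16.1 CPM. Gata3 had 11.2 and 12.3 CPM in treated KO cells, against 0.577 and 0.729 CPM in KO control cells (4.15 ± 0.23), and 53.4 and 49.2 CPM in doxycycline-treated KO cells. The keratin genes Krt8, with 227 and 245 CPM in treated KO cells, against 27.1 and 21.9 CPM in KO control cells (3.27 ± 0.09), and Krt18 (3.52), also expressed in endoderm, rose. Elf5, which marks trophoblast stem cells, was too low to be tested, and Krt7 (0.42) did not pass the test but did so with effective lengths as offsets (1.03, edgeR adjusted p = 0.0051). Tfap2c (-1.54), Cdh3 (-1.82) and Bmp4 (-2.05) were lower.

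Most neural progenitor genes tested were higher, while neuron genes went both ways. Of 26 progenitor genes 17 were tested, 14 were higher and 1 lower. Pax6, a neural progenitor regulator, had 9.03 and 9.15 CPM in treated KO cells, against 0.384 and 0.182 CPM in KO control cells (4.98 ± 0.31). Sox11 had 81.8 and 73.8 CPM in treated KO cells, against 10.8 and 10.9 CPM in KO control cells (2.84 ± 0.09), and Msx1 and Irx3 rose by 6.16 and 4.76. Sox1, the early neural plate marker, had 14.6 and 14.3 CPM in treated KO cells, against 7.24 and 9.06 CPM in KO control cells (0.82 ± 0.12), and Nes (0.05) did not pass the test. Nkx6-1, a ventral neural tube gene, had 1.12 and 1.36 CPM in treated KO cells and no read in KO control cells, and Sox21 was the member that fell (-0.59). Of 19 neuron genes tested 7 were higher, 5 of them by at least 2-fold, and 11 lower, 8 of them by at least 2-fold. The shares of all genes tested were 40.9% higher and 34.6% lower. Tubb3, the neuronal tubulin gene, had 3.37 and 4.08 CPM in treated KO cells, against 98.03 and 93.2 CPM in KO control cells (-4.69 ± 0.10), Stmn2 had 43.5 and 41.8 CPM in treated KO cells, against 289 and 289 CPM in KO control cells (-2.76 ± 0.05), and Dcx, a marker of young neurons, was too low to be tested. Map2 rose by 1.51. In the neural crest list 10 of 14 were higher and 3 lower, among them the endothelin receptor gene Ednrb (5.34), Tfap2a (5.17), Sox9 (4.60) and Foxd3 (-4.73), which is also a pluripotency gene.

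Mesoderm and gut regulators rose at low levels. Of 26 streak and mesoderm genes 20 were tested, 15 were higher and none lower. Meox1, a somite gene, had 12.3 and 12.03 CPM in treated KO cells, against 0.577 and 0.729 CPM in KO control cells (4.20 ± 0.33), and Foxf1, a gene of the lateral mesoderm, 4.96 and 5.12 CPM in treated KO cells, against 0.128 and 0.0608 CPM in KO control cells, with 3 control reads and a count ratio of 53.8-fold (95% exact counting interval 18.2 to 263). Hand2, a gene of limb and heart mesoderm, had 1.97 and 2.30 CPM in treated KO cells and no read in KO control cells, at least 11.4-fold higher. Mesp1, T and Wnt3a, genes of the streak itself, were too low to be tested. In the definitive endoderm and gut list 12 of 14 were higher and 2 lower, with 7 of 17 genes in another list as well. Pax9, a pharyngeal gene, had 6.65 and 6.48 CPM in treated KO cells, against 0 and 0.0608 CPM in KO control cells, a count ratio of 211-fold (95% exact counting interval 37.5 to 8349.6), and Prox1 had 9.69 and 12.03 CPM in treated KO cells, against 0.449 and 0.608 CPM in KO control cells (4.33 ± 0.24). Trh, the thyrotropin-releasing hormone gene, fell to 4.45 and 4.60 CPM in treated KO cells, against 137 and 152 CPM in KO control cells.

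Defining markers of the cell types were checked in both groups. The 5 embryonic stem cell markers Nanog, Esrrb, Zfp42, Klf4 and Sox2 summed to 338.9 and 353.8 CPM in treated KO cells, against 4275 and 4313 CPM in KO control cells. The 6 primitive endoderm markers Gata4, Gata6, Sox17, Sox7, Dab2 and Pdgfra summed to 790.1 and 830.5 CPM in treated KO cells, against 8.39 and 7.84 CPM in KO control cells. The 10 feeder fibroblast markers summed to 69.4 and 66.6 CPM in treated KO cells, against 47.7 and 45.5 CPM in KO control cells; of 9 tested 6 were higher and 1 lower. Among these 10 markers, Lum stood at 0.0468 and 0 CPM and Dcn at 0.281 and 0.105 CPM in treated KO cells. Col1a2, another of the 10, rose by 4.24, and Thy1 fell (-2.21). Of the whole feeder list of 20 genes, 12 of 16 tested were higher and 2 lower, and 3 had no read in KO control cells. Fstl1, which many mesenchymal cells secrete, had 459 and 449 CPM in treated KO cells, against 110.2 and 107 CPM in KO control cells. Early passages of the line were kept on embryonic fibroblasts, and the part of such cells in these values was not tested. The pan-leukocyte gene Ptprc stood at 0.0936 and 0.0523 CPM in treated KO cells, against 0.128 and 0 CPM in KO control cells, and in the blood and endothelium list 7 of 11 were higher and 2 lower. In the smooth muscle list 10 of 19 were higher and 5 lower, 5 of them higher by at least 2-fold. The largest changes of these 3 lists were a rise of the collagen gene Col1a2 (4.24) and a fall of Thy1 (-2.21) among feeder genes, a rise of Cdh5 (4.18), the endothelial cadherin gene, and a fall of Gata1 (-2.77), an erythroid factor gene, and a rise of Acta2 (2.98), the smooth muscle actin gene, and a fall of the filamin gene Flna (-0.68).

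Genes of ribosome biogenesis fell. All 30 genes of the list fell, 27 of them by at least 2-fold, with a median of -1.60. Ncl, the nucleolar protein nucleolin, had 676 and 681 CPM in treated KO cells, against 2444 and 2308 CPM in KO control cells (-1.81 ± 0.06), Npm1 had 904 and 887 CPM in treated KO cells, against 2813 and 2772 CPM in KO control cells (-1.64 ± 0.05), and Rrp12 had the largest fall (-2.51). In the list of G1 cyclins, CDK inhibitors and Myc genes 12 of 23 were higher and 9 lower. Myc had 5.34 and 4.86 CPM in treated KO cells, against 74.1 and 76.5 CPM in KO control cells (-3.88 ± 0.09) and Mycn (-1.16) fell too. Ccnd1 had 8.05 and 7.63 CPM in treated KO cells, against 111 and 104 CPM in KO control cells (-3.77 ± 0.09), whereas its paralog Ccnd2 had 71.04 and 65.1 CPM in treated KO cells, against 1.22 and 1.52 CPM in KO control cells (5.63 ± 0.16). The CDK inhibitor genes Cdkn1c (2.02), Cdkn2a (2.60), Cdkn2b (2.78) and Cdkn2c (3.21) rose. In the glycolysis and hypoxia list 7 of 24 were higher and 11 lower. The glycolytic genes Gapdh (-1.10), Pkm (-1.01), Hk2 (-1.43) and Pfkp (-1.62) fell, and the hypoxia target Vegfa rose (2.04).

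Of 13 DNA methylation genes 3 were higher and 9 lower. Tet1, which oxidizes methylcytosine, had 55.8 and 52.5 CPM in treated KO cells, against 673 and 713 CPM in KO control cells (-3.68 ± 0.06), its paralog Tet2 fell (-2.28), and Tet3 rose (1.47). Uhrf1, which maintains methylation, fell (-1.79), and the methyl-CpG reader gene Mbd2 rose (1.52). Germline genes were mostly higher, with 13 of 19 higher and 4 lower. Dazl, an RNA-binding germ cell factor, had 113 and 113 CPM in treated KO cells, against 10.7 and 12.4 CPM in KO control cells (3.29 ± 0.09), and Rec8, a meiotic cohesin gene, had 71.1 and 66.7 CPM in treated KO cells, against 8.84 and 9.12 CPM in KO control cells (2.94 ± 0.08). The largest rise of the list was that of the testis tubulin gene Tuba3b (5.55), which has close paralogs that make its count uncertain. Nanos3, an RNA-binding germ cell gene, had no read in treated KO cells, against 0.705 and 0.608 CPM in KO control cells. Of 31 imprinted genes 23 were higher and 5 lower. Igf2, the growth factor gene, had 263 and 283 CPM in treated KO cells, against 13.5 and 11.5 CPM in KO control cells (4.45 ± 0.07), Dlk1 had 132 and 148 CPM in treated KO cells, against 1.28 and 1.22 CPM in KO control cells (6.80 ± 0.12), and Peg10 had 3591 and 3435 CPM in treated KO cells, against 498 and 495 CPM in KO control cells (2.82 ± 0.05). Phlda2, a gene that restrains placental growth, fell (-3.16).

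The remaining lists differed in direction. In the Wnt list 13 of 23 were higher and 6 lower, and the feedback gene Axin2 changed by 1.20. Dkk1, a secreted Wnt inhibitor, had 25.3 and 28.2 CPM in treated KO cells, against 0.320 and 0.243 CPM in KO control cells (6.54 ± 0.21). In the BMP list 15 of 20 were higher and 4 lower, with a change of 4.53 for the ligand gene Bmp2. The BMP target gene Id2 had 143 and 151 CPM in treated KO cells, against 14.5 and 13.7 CPM in KO control cells (3.38 ± 0.07), and Bmper, a secreted regulator, had 16.01 and 15.7 CPM in treated KO cells, against 0.128 and 0.0608 CPM in KO control cells, with 3 control reads and a count ratio of 169-fold (95% exact counting interval 57.7 to 824). Grem1, a BMP antagonist gene, had the largest fall of the list (-3.55). Of 21 epithelial and mesenchymal genes 11 were higher and 4 lower. Snai1, a repressor of epithelial genes, had 20.3 and 21.6 CPM in treated KO cells, against 1.35 and 0.973 CPM in KO control cells (4.17 ± 0.19), and Cdh1, the E-cadherin gene, had 89.01 and 84.4 CPM in treated KO cells, against 235 and 232 CPM in KO control cells (-1.43 ± 0.05). The tight junction gene Cldn4 fell most (-3.17), and Cdh11, a mesenchymal cadherin gene, had 4.02 and 4.03 CPM in treated KO cells, against 0.0641 and 0 CPM in KO control cells, with 1 control read and a count ratio of 129-fold (95% exact counting interval 22.8 to 5128). Of 22 p53 targets 10 were higher and 9 lower, beside 40.9% and 34.6% of all genes tested. Their median was -0.01. Fas, the death receptor gene, rose most (1.67), and Gdf15, a stress cytokine gene, fell most (-2.23). Of 16 interferon genes tested 11 were higher and 3 lower, among them B2m, the light chain of class I molecules, with 84.8 and 88.2 CPM in treated KO cells, against 14.9 and 16.5 CPM in KO control cells (2.46 ± 0.07). Mx2, an antiviral GTPase gene, had 0.749 and 0.523 CPM in treated KO cells, against 0 and 0.122 CPM in KO control cells, with 2 control reads and a count ratio of 10.3-fold (95% exact counting interval 2.58 to 89.5), and Oas1a fell (-2.25). Of 13 mitochondrially encoded genes 1 was higher (mt-Nd6, 0.47) and 7 lower, led by mt-Co2 (-1.35). These falls depend on the TMM scaling. By share of counts mitochondrial transcripts took 1.278% and 1.194% in treated KO cells, against 1.315% and 1.328% in KO control cells. No member was higher with DESeq2 size factors, with no filter on low counts or without any 1 of the 4 libraries, 2 were higher with upper-quartile factors, and without the second treated KO library 4 were lower. The call of mt-Co2 was lost without either treated KO library (edgeR adjusted p = 0.079 and 0.073) and without the first KO control library (0.068).

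The 12 largest rises were taken among genes at 5 CPM or more that met the naming rule given below. They were ranked by fitted change, which depends on the prior count for genes with no control read. Of them Hoxa5, Hoxb4, Hoxb1, Hoxb2, Hoxb3, Hoxb5os, Hoxa9, Cubn and Ttr are given above, and 3 more follow. Habp2, a plasma protease gene, had 28.3 and 30.3 CPM in treated KO cells and no read in KO control cells, at least 157-fold higher. Akr1c12, an aldo-keto reductase gene, had 12.03 and 10.3 CPM in treated KO cells and no read in KO control cells, at least 59.6-fold higher; it has close paralogs, so its count is uncertain. S100g, the calcium carrier calbindin of epithelia, had 8.52 and 8.31 CPM in treated KO cells and no read in KO control cells, at least 44.9-fold higher.

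The 12 largest falls were led by Nphs1, the nephrin gene, with 0 and 0.0523 CPM in treated KO cells, against 14.8 and 15.6 CPM in KO control cells, and held its family member Kirrel2, with 0.0468 and 0.105 CPM in treated KO cells, against 11.9 and 10.6 CPM in KO control cells. With 1 read of Nphs1 and 3 reads of Kirrel2 in treated KO cells, the count ratios were 615-fold lower (95% exact counting interval 109.9 to 24344) and 151-fold lower (95% exact counting interval 51.3 to 736). Otx2, Tdgf1, Spry4 and Fgf17, described above, were among them. Platr10, a pluripotency-associated noncoding RNA, had 0 and 0.366 CPM in treated KO cells, against 35.6 and 31.7 CPM in KO control cells (-7.55 ± 0.28). Inhbb, a subunit of activin and inhibin, had 1.64 and 2.46 CPM in treated KO cells, against 165 and 159 CPM in KO control cells (-6.32 ± 0.11). The others were Lrrc2 (-6.27), the homeobox gene Nkx6-3 (-6.15), the oocyte gene Khdc3 (-5.85) and the kinase gene Sgk2, with 0.0936 and 0.0523 CPM in treated KO cells, against 5.38 and 4.74 CPM in KO control cells (3 treated reads, a count ratio 68.2-fold lower (95% exact counting interval 22.9 to 334)). The rule for naming these 12 required that both treated libraries lay below both controls.

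The response of KO cells was then set beside that of WT cells, and the difference was tested as an interaction. For 3157 of 17884 genes (17.7%) the response differed, 1308 of them more positive in KO cells (7.31%) and 1849 more negative (10.3%). With effective lengths as offsets 776 were more positive and 985 more negative, and with DESeq2 976 were more negative. The Hox median was 5.72 in KO cells and 5.69 in WT cells, and 3 of 38 Hox genes had a more positive response in KO cells and none a more negative one. The change of Rarb was 6.27 in KO cells and 5.99 in WT cells, a difference of 0.28 ± 0.56 that did not pass the test (edgeR adjusted p = 0.8). For Cyp26a1 the difference was -0.93 ± 0.87 (edgeR adjusted p = 0.53).

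Naive pluripotency genes fell further in KO cells. The median change was -3.10 in KO cells and -1.17 in WT cells, and the difference passed the test, as a more negative response in KO cells, for 16 of 21 genes and in the other direction for none, at a background of 10.3%. Nanog stood at 73.1 and 77.03 CPM in treated KO cells and 739 and 769.5 CPM in KO control cells, and at 431 and 413 CPM in treated WT cells and 964 and 929.6 CPM in WT control cells. The difference of the log2 changes was -2.16 ± 0.07 (edgeR adjusted p = 1.3e-18). Esrrb had 155 and 144 CPM in treated WT cells and 1109 and 1116 CPM in WT control cells, a difference of -2.11 ± 0.08 (edgeR adjusted p = 6.8e-17). Tdh (-0.03), Klf5 (-0.02), Tbx3 (-0.19), Gbx2 (-0.19) and Manba (-0.08) were the members whose difference did not pass.

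More than 1 in 2 genes of the endoderm surface and basement membrane lists rose further in KO cells. In the surface list 8 of 15 responses were more positive in KO cells and 1 more negative, and in the basement membrane list 14 of 24 were more positive and 1 more negative, at a background of 7.31% more positive. Dab2 had 176 and 157 CPM in treated WT cells and 3.94 and 4.61 CPM in WT control cells, below the treated KO cells, a difference of 2.92 ± 0.22 (edgeR adjusted p = 4.9e-11). Sparc had 752 and 762 CPM in treated WT cells and 223 and 226 CPM in WT control cells, a difference of 1.88 ± 0.07 (edgeR adjusted p = 5.8e-17). Of 14 transcription factor genes of the lineage 2 were more positive in KO cells, 0 were more negative and 12 did not pass. Gata4 was 1 of the 2 that passed (1.53 ± 0.28, edgeR adjusted p = 2.2e-04), while Gata6 (0.67) and Sox17 (0.00) did not. In the Nodal list 9 of 18 responses were more negative in KO cells and 0 more positive. In the p53 list 15 of 22 were more negative and 1 more positive. Over all genes tested, 10.3% were more negative and 7.31% more positive. Control levels of both lists differed between the lines. The Nodal list summed to 1791 and 1790 CPM in KO control cells and 1326 and 1351 CPM in WT control cells. It summed to 539 and 555 CPM in treated KO cells and 669 and 659 CPM in treated WT cells. For the p53 list the sums were 1725 and 1824, 1335 and 1344, 1536 and 1531, and 1704 and 1650 CPM, in the same order of groups. In the trophectoderm list 10 of 29 were more positive and 9 more negative. Without the second WT control library 5 responses of the surface list were more positive, and with effective lengths as offsets 5 of the trophectoderm list were more negative.

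The 6 genes at 5 CPM or more with the most negative difference were Tnc, Itga2, Lefty2, Nphs1, Pou2f3 and Wnt8a. Lefty2 had 28.6 and 24.3 CPM in treated WT cells and 35.1 and 32.2 CPM in WT control cells, a difference of -4.72 ± 0.15 (edgeR adjusted p = 9.1e-19). Wnt8a, a posterior Wnt ligand gene, had 3.51 and 2.14 CPM in treated KO cells, against 0.256 and 0.486 CPM in KO control cells, and 20.1 and 17.9 CPM in treated WT cells and 0.353 and 0.0623 CPM in WT control cells. Tnc and Itga2 rose in both lines but had no read in WT control cells, so their fitted difference depends on the prior count. The 6 with the most positive difference were Hoxa5, Spink1, Meg3, Tspan8, Meis2 and Apom. Meis2 had 98.4 and 90.1 CPM in treated WT cells and 4.65 and 5.85 CPM in WT control cells, a difference of 4.04 ± 0.29 (edgeR adjusted p = 2.3e-11). The treated levels of Meis2 lay closer together than the control levels, which were lower in KO cells. Spink1, a secreted protease inhibitor, had 7.58 and 5.96 CPM in treated KO cells, against 0.256 and 0.243 CPM in KO control cells, and 1.58 and 1.75 CPM in treated WT cells and 1.94 and 2.55 CPM in WT control cells. Hoxa5 and Meg3, a noncoding RNA of an imprinted locus, had no read in KO control cells, so their fitted difference depends on the prior count as well. The calls of Hoxa5 and Meg3 were lost without the first KO control library (edgeR adjusted p = 0.078 and 0.067) and without the second (0.085 and 0.075), and that of Hoxa5 without the second WT control library (0.052). The call of Wnt8a was lost without the second KO control library (0.149), and that of Tnc without the first KO control library (0.265) and without the first or second WT control library (0.092 and 0.089).

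**Figure D5:**
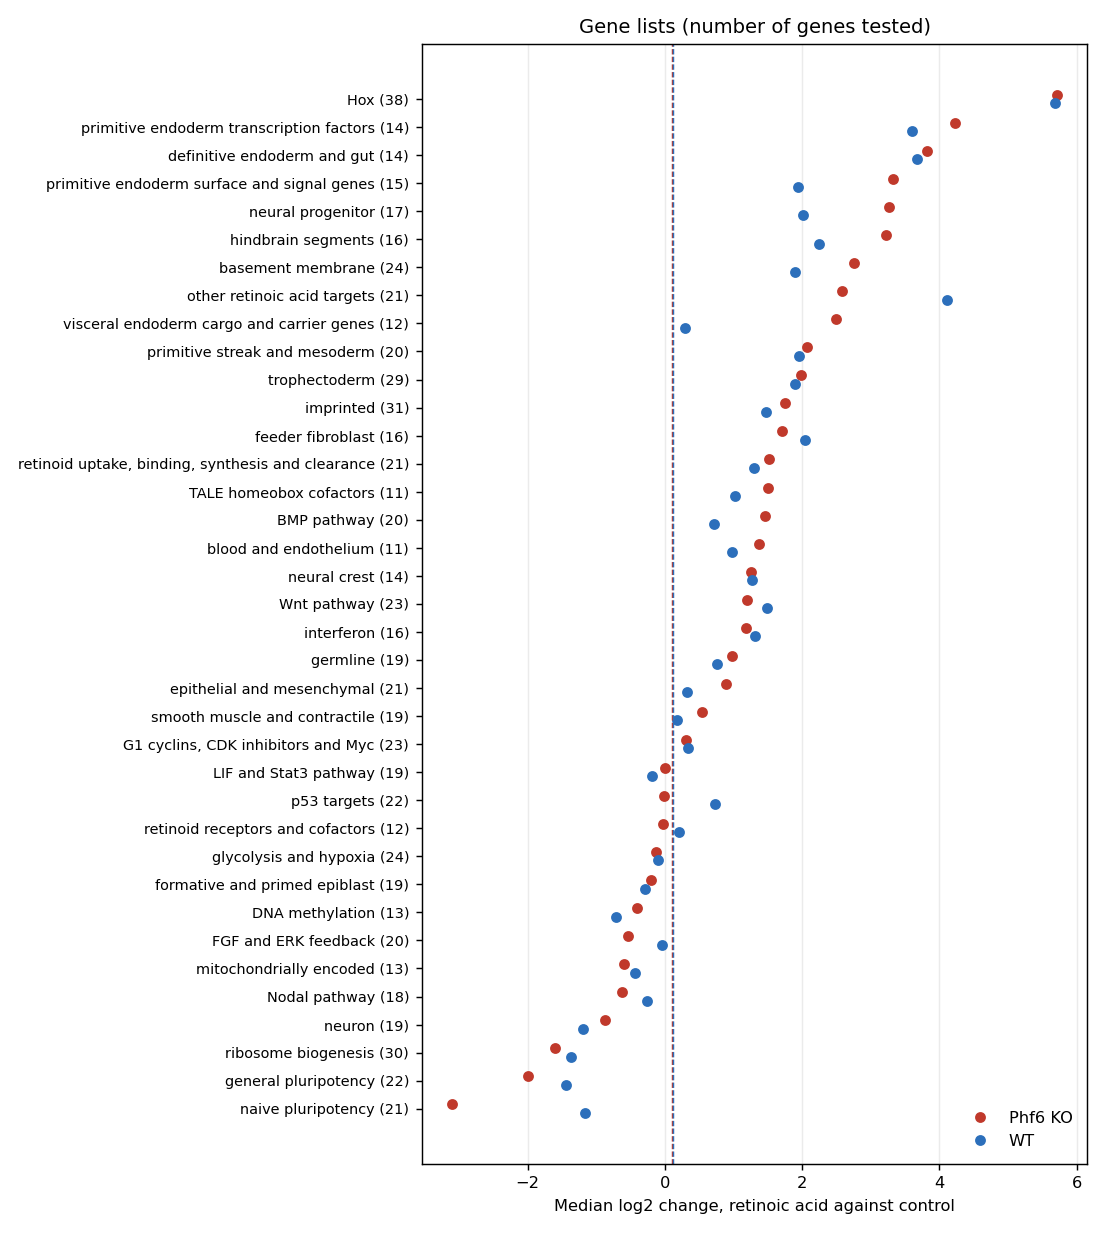
Median log2 change with retinoic acid over the tested members of each of 37 gene lists in KO cells (upper point of each row) and WT cells (lower point), with dashed lines at the medians of all tested genes, 0.10 in KO and 0.12 in WT cells. Hox and primitive endoderm genes stand at the top and naive pluripotency genes at the bottom in KO cells.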

How the data were processed

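The authors deposited 1 table of gene-level expected counts, TPM and effective lengths per library, per the file headers. Per the submitters' processing notes, STAR 2.5.3a, RSEM 1.3.0, DESeq2 1.18.1 and the build mm10 were used. No source used here gives the annotation version or says whether counting was stranded. Of 53379 gene IDs, 53274 matched GENCODE M21, which gave the coordinates.

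The deposited expected counts were rounded to whole numbers. Genes were kept with edgeR's filterByExpr at a minimum count of 10 (17884 genes), scaling used TMM (normalization factors 0.90 to 1.16), and edgeR 4.0.16 with limma 3.58.1 in R 4.3.3 fitted a quasi-likelihood model with 1 term for each of the 6 groups, which shared 1 estimate of the spread with 6 residual degrees of freedom. P-values were adjusted by Benjamini-Hochberg over all genes tested, and "higher" or "lower" stands for an adjusted p under 0.05. DESeq2 1.42.0 was an alternative. The deposited TPM, which the authors scaled by transcript length, was used for levels between genes. Replicates differed by more than counting noise (a chi-square statistic of 1.90 to 6.28 per degree of freedom).

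For a gene with no read in 1 group, the lower bound sets each library of that group at a floor of 3 counts. Where a gene called as changed has 1 to 3 reads in 1 group and a fold is given, it is the count ratio with its 95% exact interval. Floors and intervals cover counting error only. Near-identical copies and pseudogenes (Gapdh and Npm1 have many) and overlapping antisense genes share reads, so their counts are uncertain.

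The members and the 37 gene lists (708 different genes, of which 655 were tested) were chosen with earlier results of these data known. Genes named outside the lists were Phf6, Pou5f1, the 12 largest changes in each direction and the 6 largest differences between the lines in each direction. Both sets were taken among genes that passed the test in question and reached 5 CPM in the highest group. Predicted symbols and pseudogenes were left out. For the 12 largest changes, the treated and control KO libraries also had to lie apart. From the lists the text names members with large changes or a described role. Promoter sequences came from RefSeq. Alternatives were other scalings and filters, DESeq2, a replicate term, effective lengths as offsets, fewer genes or libraries, and each library left out. Most members enter the text only through the counts of their list, and some are not reported here.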

Additional observations from a re-analysis of the deposited data

Results flagged for a closer look

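The text gives the difference between the lines for 26 genes. For 17 of them the responses of KO and WT cells differed by the interaction test (edgeR adjusted p under 0.05). This count follows from how the genes were named and cannot be compared with the 17.7% of all genes tested. With 2 libraries a group no library could be compared with the rest of its group for outliers; the calls lost when 1 library was left out are given above. Values are the log2 change in KO cells minus that in WT cells. Of the genes, 12 were picked for a large difference among those that passed this test. Tdh, Klf5, Tbx3, Gbx2 and Manba were named because their difference did not pass.

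The difference was more negative for Nanog (-2.16) and Esrrb (-2.11) of the naive pluripotency list, and for Lefty2 (-4.72), whose control level was higher in KO cells (117 and 107 CPM) than in WT cells (35.1 and 32.2 CPM). It was -3.98 for Nphs1, -3.86 for Pou2f3 and -3.54 for Wnt8a. Pou2f3, a POU factor gene of tuft cells and epidermis, had 0.749 and 0.523 CPM in treated KO cells, against 16.9 and 16.8 CPM in KO control cells, and 2.69 and 3.09 CPM in treated WT cells and 4.70 and 5.60 CPM in WT control cells. Tnc, the tenascin C gene (-5.60), and the integrin gene Itga2 (-5.56) had no read in WT control cells. Treated levels of Itga2 were 8.52 and 7.95 CPM in KO cells and 3.87 and 3.49 CPM in WT cells, and those of Tnc were 4.31 and 4.13 CPM in KO cells and 8.45 and 8.88 CPM in WT cells.

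The difference was more positive for Gata4 (1.53), Dab2 (2.92) and Sparc (1.88) of the endoderm and basement membrane lists, for Meis2 (4.04) and Hoxa5 (5.26), and for Spink1 (5.16), Tspan8 (4.71), Apom (3.86) and Meg3 (5.04). Apom, an apolipoprotein gene, had 7.30 and 7.84 CPM in treated KO cells, against 0.449 and 0.304 CPM in KO control cells, and 1.76 and 1.45 CPM in treated WT cells and 1.29 and 1.06 CPM in WT control cells. Tspan8, a tetraspanin gene, had 9.92 and 9.41 CPM in treated KO cells, against 0.128 and 0.0608 CPM in KO control cells (3 control reads, a count ratio of 103-fold (95% exact counting interval 35.1 to 504)), and 4.75 and 3.69 CPM in treated WT cells and 0.823 and 1.49 CPM in WT control cells. For Meg3 the treated KO libraries, at 0.936 and 0.628 CPM, lay below the treated WT libraries, at 7.44 and 7.43 CPM, although the fitted difference is positive; WT control cells had 1.88 and 2.37 CPM and KO control cells no read.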

How the results depend on the processing

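The number of genes that passed in KO cells lay between 12107 (DESeq2) and 13835 (no filter on low counts), against 13502 as reported, and leaving out 1 library gave 12520 to 12710. Counts of the difference between the lines depended more on the setting: 1308 more positive genes became 776 with effective lengths as offsets, and 1849 more negative genes became 985 with effective lengths and 976 with DESeq2. Differences of at least 2-fold numbered 191 more positive and 256 more negative with DESeq2, against 291 and 422 as reported. The cause was not tested. Leaving out 1 library gave 2231 to 2511 differences, against 3157. No value named in the text changed sign while called. Of 231 genes tested for their change in KO cells, 225 kept their side of the threshold in every setting; Crabp1 (DESeq2 adjusted p = 0.056), Pou5f1, Hoxd11, Krt7, mt-Co2 and mt-Nd6 did not. With effective lengths the differences of Tnc and Itga2 did not pass (adjusted p = 0.07 and 0.061), and that of Tbx3 passed with only the groups compared (-0.17, adjusted p = 0.025). With 2 libraries a group, genes at a few reads rest on counting error as much as on the fit.

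Same-numbered libraries did not deviate together (correlation of deviations 0.076 between the KO groups and 0.029 between the WT groups). This check cannot tell whether same-numbered libraries were prepared together, and the main fit used no pairing. With the replicate block 13413 genes passed in KO cells, 13127 in WT cells and 3008 for the difference, and the higher call of mt-Nd6 was lost.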
